A study of Mus musculus with 12 samples.

Results

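The genes described here are 10 genes of the insulin, FoxO and PHLPP signalling route, measured in the ileum of mice that received zinc sulphate (ZnSO4), the synthetic glucocorticoid dexamethasone (Dex), both or neither. They are the receptor genes Insr and Igf1r, the adaptor genes Irs1 and Irs2, the PI3-kinase subunit gene Pik3r1, the transcription factor genes Foxo1 and Foxo3, the FoxO target Sesn1 and the phosphatase genes Phlpp1 and Phlpp2. They were taken from the count table by the Ensembl identifier of each symbol, and all 10 were found among its 54838 genes and were among the 15938 genes that had enough reads to be tested. The 10 genes were selected on expression changes already seen in these same 12 libraries, so their values and the number of them that passed a test are a description, and nothing is supported with that number.

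RNA was sequenced from the ileum of 12 C57BL/6J mice, 3 in each of 4 groups that are called water + PBS, water + Dex, ZnSO4 + PBS and ZnSO4 + Dex. The mice drank normal water or water with 25 mM ZnSO4 for 7 days. An injection of 200 µg Dex in phosphate-buffered saline (PBS), or of PBS alone, then followed, and the ileum was taken 2 h later. All groups thus shared the injection and its vehicle. The study's methods name adult female C57BL/6J mice from a commercial breeder, and the labels give no age for single mice. The labels give neither cage nor batch, so cage or day cannot be told apart from group.

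Binding of insulin or insulin-like growth factors to their receptors leads, through the insulin receptor substrates, to activation of PI3-kinase and then of the kinase AKT. Active AKT phosphorylates the FoxO transcription factors, which then leave the nucleus, and it also promotes mTORC1 activity. PHLPP phosphatases remove a phosphate from AKT and so act against this route, while sestrins restrain mTORC1. Glucocorticoids, whose receptor is a transcription factor itself, are known to act on many of these genes in liver and muscle, where FoxO factors and the glucocorticoid receptor share targets.

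Libraries held between 10760132 and 11827487 reads counted on genes. The treatments were visible in their known targets: the glucocorticoid-induced genes Fkbp5, Per1 and Tsc22d3 were upregulated by Dex in water mice and in ZnSO4 mice, and the metallothionein genes Mt1 and Mt2 were upregulated by ZnSO4 with either injection. Enterocyte markers were high in every library, with a summed level between 11850.0 and 27820.0 CPM (counts scaled to library size) over 8 genes. The summed level of 8 pancreatic markers was low, between 4.56 and 7.31 CPM, and 1 of them had enough reads to be tested. Ins1, Cpa1 and Amy2a5, which are among these markers, had no read in any library. Mouse 2 of ZnSO4 + Dex stood apart from its group over all genes and had the lowest summed enterocyte level of all 12 libraries. Calls gained without it are given with both values, and calls lost without it are named with their genes. Mouse 3 of ZnSO4 + PBS stood apart from its group in its smooth muscle and fibroblast markers, given with Igf1r. In a tissue sample, fewer cells of a type and less RNA per cell cannot be told apart.

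Among the 10 genes, Dex upregulated Sesn1 4.21-fold and Pik3r1 2.04-fold in water mice and downregulated Phlpp2, and each of these also changed with Dex in ZnSO4 mice. ZnSO4 upregulated Igf1r with either injection and Insr in PBS mice, and it downregulated Phlpp2 in Dex mice. Both Igf1r calls were lost in some of the fits that leave out 1 mouse, given below. Foxo3 and Phlpp1, the respective relatives of Foxo1 and Phlpp2, passed the test in none of the comparisons. Differences are given as LFC, the log2 of the fold change, with the standard error (SE) and the adjusted p of edgeR's quasi-likelihood test, corrected by Benjamini and Hochberg over all 15938 genes. A gene was called changed at an adjusted p under 0.05. With 3 mice against 3, an exact permutation test of a single gene cannot give a p under 0.1, so the calls rest on the model.

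For Dex in water mice, 5 of the 10 genes passed the test (Irs2, Insr, Pik3r1 and Sesn1 up, Phlpp2 down), beside 9.93% of all genes tested (5.41% up and 4.51% down). For Dex in ZnSO4 mice, 5 also passed (Irs1, Irs2, Pik3r1 and Sesn1 up, Phlpp2 down), beside 13.7% of all genes (6.65% up and 7.08% down). ZnSO4 in PBS mice changed Insr and Igf1r, both up, beside 4.66% of all genes (2.11% up and 2.54% down). ZnSO4 in Dex mice changed Igf1r (up) and Phlpp2 (down), beside 4.37% of all genes (1.83% up and 2.54% down). Comparing ZnSO4 + Dex with water + PBS, which holds both treatments, 7 genes passed: Irs1, Irs2, Insr, Igf1r, Pik3r1 and Sesn1 up and Phlpp2 down, beside 23.3% of all genes (11.5% up and 11.9% down). The interaction, the test of whether the Dex effect differed between ZnSO4 and water mice, called none of the 10 genes and 0% of all genes in edgeR, where 794 of the 15938 genes had an unadjusted p under 0.05, while DESeq2 called 6 genes, none of them among the 10. Several of these comparisons share a group of mice and are therefore not independent of each other.

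With the study's further requirement of an LFC above 0.8 in size, 3 of the 10 genes counted for Dex in water mice, beside 4.42% of all genes, and 4 for Dex in ZnSO4 mice, beside 5.81%. ZnSO4 in PBS mice then had 0 of the 10, beside 1.7%, and ZnSO4 in Dex mice had 1, Phlpp2, beside 1.9%. Both treatments together had 5 of the 10, beside 9.66%. The median LFC of the 10 genes was 0.59 for Dex in water mice, where the median of all genes was -0.014, and 0.47 for Dex in ZnSO4 mice, where it was 0.0091. For ZnSO4 the medians of the 10 genes were 0.0768 in PBS mice and 0.17 in Dex mice, with medians over all genes of -0.013 and 0.0074.

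**Figure D1:**
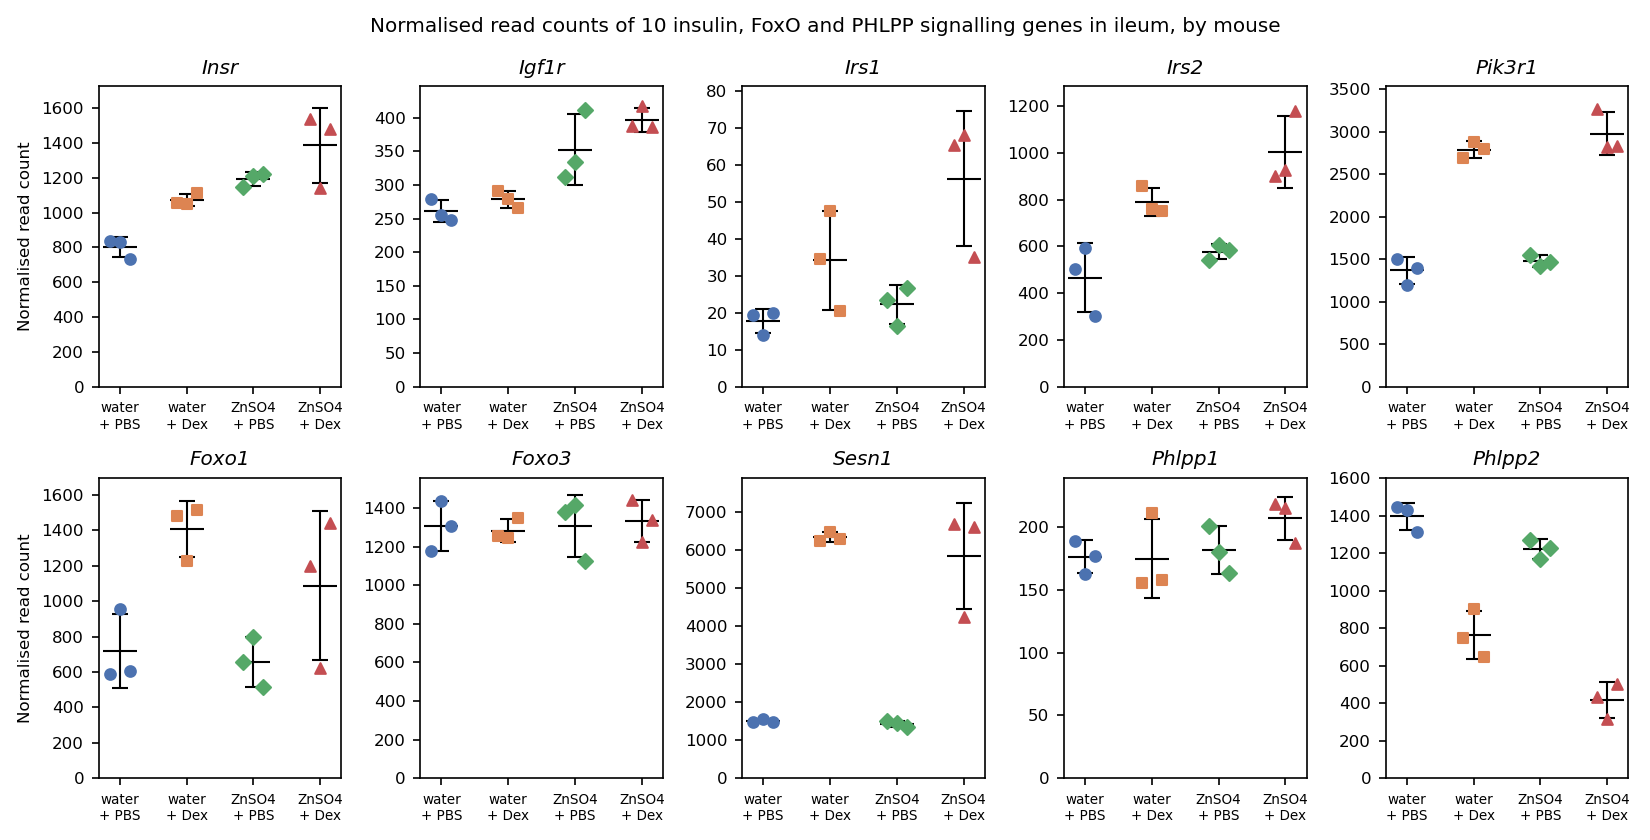
Normalised read counts of the 10 genes (vertical axes from 0, one panel per gene) in the 4 groups, with a symbol for each mouse and bars for the mean ± SD of 3 mice. Sesn1 and Pik3r1 stood higher and Phlpp2 lower in every Dex mouse than in every PBS mouse, while the groups overlapped for Foxo3 and Phlpp1.

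Insr encodes the insulin receptor and lies at chr8:3122061-3279617, reverse strand (mm10, as are all positions here). Its normalised read counts, scaled to the mean effective library size, were 839.5, 834 and 734 for water + PBS, 1055, 1051 and 1114 for water + Dex, 1146, 1212 and 1222 for ZnSO4 + PBS and 1536, 1138 and 1482 for ZnSO4 + Dex. All ZnSO4 + PBS mice were above all water mice of either injection, and among ZnSO4 mice the Dex group overlapped the PBS group through mouse 2. ZnSO4 upregulated Insr in PBS mice (LFC 0.57, SE 0.10, adjusted p = 0.0115) and Dex upregulated it in water mice (LFC 0.42, SE 0.10, adjusted p = 0.025). In Dex mice the ZnSO4 difference missed the threshold (LFC 0.37, SE 0.10, adjusted p = 0.0721) and passed it without mouse 2 of ZnSO4 + Dex (LFC 0.49, adjusted p = 0.00543). It also passed with DESeq2 (adjusted p = 0.0438), with upper-quartile scaling (0.0277) and with the enterocyte covariate described next (0.0274). The Dex difference in ZnSO4 mice likewise missed it (LFC 0.22, SE 0.10, adjusted p = 0.214) and passed without that mouse (LFC 0.34, adjusted p = 0.0112). With both treatments Insr was 1.73-fold the level of water + PBS mice (LFC 0.79, SE 0.10, adjusted p = 0.00028). The call for Dex in water mice was lost when any 1 of the 6 mice compared was left out (highest adjusted p = 0.117, without mouse 3 of water + Dex) and with the enterocyte markers as a covariate (LFC 0.33, adjusted p = 0.0534), a model added after the data were seen. Their summed level was 19270.0 to 22240.0 CPM in water + PBS mice and 25110.0 to 27820.0 for water + Dex. By contrast, the call for ZnSO4 in PBS mice held in all 12 such fits.

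Igf1r, at chr7:67952827-68233668, forward strand, encodes the receptor for insulin-like growth factor 1. Normalised counts were 279, 256 and 248 for water + PBS, 291, 279 and 266 for water + Dex, 312, 334 and 411 for ZnSO4 + PBS and 387, 417 and 386 for ZnSO4 + Dex. Every ZnSO4 mouse was above every water mouse. ZnSO4 upregulated Igf1r in PBS mice (LFC 0.43, SE 0.11, adjusted p = 0.0415) and in Dex mice (LFC 0.51, SE 0.11, adjusted p = 0.02), whereas the Dex differences were small in water mice (LFC 0.0934, SE 0.11, adjusted p = 0.663) and in ZnSO4 mice (LFC 0.17, SE 0.10, adjusted p = 0.346). The call in PBS mice held in 2 of the 12 fits that leave out 1 mouse, those without mouse 1 of ZnSO4 + PBS or mouse 2 of ZnSO4 + Dex, and the highest adjusted p was 0.145, without mouse 3 of ZnSO4 + PBS. The call in Dex mice held in 7 and was lost without any 1 water + Dex mouse or without mouse 1 or 2 of ZnSO4 + Dex, with adjusted p up to 0.082. With both treatments Igf1r was 1.52-fold the water + PBS level (LFC 0.60, SE 0.11, adjusted p = 0.00176). The study, by contrast, lists Igf1r among genes induced only by Dex and ZnSO4 combined, from lower counts. For ZnSO4 alone it gives almost no change and no call, so the estimates disagree in size as well. The source of this disagreement was not tested. Markers of other cell types also differed between water mice and some ZnSO4 mice, some being higher with ZnSO4 and some lower. The summed level of 7 smooth muscle markers was 1789, 1499 and 1934 CPM in water + PBS mice, 1875, 1922 and 1977 for water + Dex, 1773, 1745 and 3113 for ZnSO4 + PBS and 2440.0, 3066 and 2146 for ZnSO4 + Dex. With this level as a covariate, a model added after these values had been seen, the LFC of Igf1r was 0.33 in PBS mice (adjusted p = 0.103) and 0.38 in Dex mice (adjusted p = 0.0947), so both calls were lost there. With the enterocyte covariate the call in Dex mice was lost as well (LFC 0.41, adjusted p = 0.0859). The summed level of 6 fibroblast markers was 1271, 950.5 and 952 CPM for water + PBS, 1016, 1136 and 974 for water + Dex, 1009, 1151 and 1736 for ZnSO4 + PBS and 1287, 1648 and 1144 for ZnSO4 + Dex. That of 6 goblet cell markers was 12520.0 to 12630.0, 14080.0 to 14960.0, 13880.0 to 16620.0 and 16170.0 to 18950.0 CPM in these groups. The part of fibroblasts and goblet cells in the Igf1r result was not tested.

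Irs1 and Irs2 encode the insulin receptor substrates, the adaptors that link both receptors to PI3-kinase. Irs1, at chr1:82233101-82291416, reverse strand, had few reads, with normalised counts of 19.5, 14 and 20 for water + PBS, 34.6, 47.5 and 20.5 for water + Dex, 23.6, 16.5 and 26.9 for ZnSO4 + PBS and 65.3, 68.2 and 35.2 for ZnSO4 + Dex. The Dex mice were above the PBS mice within water and within ZnSO4, but only narrowly so in water mice. Dex upregulated Irs1 in ZnSO4 mice (LFC 1.33, SE 0.34, adjusted p = 0.021), while the difference in water mice did not pass (LFC 0.93, SE 0.35, adjusted p = 0.135). ZnSO4 gave LFC 0.32, SE 0.36, adjusted p = 0.676 in PBS mice and LFC 0.72, SE 0.33, adjusted p = 0.261 in Dex mice. With both treatments Irs1 was 3.14-fold the water + PBS level (LFC 1.65, SE 0.34, adjusted p = 0.00519). The Dex call in ZnSO4 mice held in 8 of the 12 fits that leave out 1 mouse, and was lost without mouse 1 or 2 of either ZnSO4 group (adjusted p up to 0.081) and with the smooth muscle covariate (adjusted p = 0.0515). With that covariate the call for both treatments was lost too (adjusted p = 0.091). The gene overlaps the antisense gene Gm9747 over 30.9% of its exon length, and Gm9747 had 0 counts in all libraries.

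Irs2, at chr8:10984681-11008458, reverse strand, was the more abundant of these adaptors, with normalised counts of 504, 594 and 303 for water + PBS, 857, 759 and 749.9 for water + Dex, 541, 606 and 585 for ZnSO4 + PBS and 902, 928 and 1180.1 for ZnSO4 + Dex. Each Dex mouse exceeded every PBS mouse, and each ZnSO4 + Dex mouse exceeded every water + Dex mouse. Dex upregulated Irs2 1.69-fold in water mice (LFC 0.76, SE 0.19, adjusted p = 0.0298) and 1.74-fold in ZnSO4 mice (LFC 0.80, SE 0.19, adjusted p = 0.0175). The ZnSO4 differences did not pass in PBS mice (LFC 0.31, SE 0.19, adjusted p = 0.422) or in Dex mice (LFC 0.35, SE 0.19, adjusted p = 0.365). Among water + PBS mice the values were spread widely, mouse 3 being lowest. The Dex call in water mice held in 8 of 12 fits and was lost without mouse 1 of water + PBS or any 1 water + Dex mouse (adjusted p up to 0.0995), with the enterocyte covariate (adjusted p = 0.0615) and when only the groups compared were fitted (0.0767). In ZnSO4 mice it held in 9 and was lost without mouse 1 or 3 of ZnSO4 + PBS or mouse 3 of ZnSO4 + Dex (adjusted p up to 0.0701). With both treatments Irs2 was 2.15-fold the water + PBS level (adjusted p = 0.00186). The antisense gene 9530052E02Rik overlaps 2.56% of its exon length and had between 0 and 4 counts.

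Pik3r1 lies at chr13:101680563-101768217, reverse strand and encodes p85α, the main regulatory subunit of PI3-kinase, which together with shorter products of the same gene is known to bind the insulin receptor substrates. Normalised counts were 1507, 1198 and 1403 for water + PBS, 2688, 2885 and 2793 for water + Dex, 1552, 1419 and 1464 for ZnSO4 + PBS and 3267, 2826 and 2831 for ZnSO4 + Dex. The PBS mice and the Dex mice formed separate ranges, with no Dex mouse within the PBS range. Dex upregulated Pik3r1 2.04-fold in water mice (LFC 1.03, SE 0.0931, adjusted p = 3.54e-05) and 2.01-fold in ZnSO4 mice (LFC 1.01, SE 0.0929, adjusted p = 3.3e-05), and both calls held in all 12 fits without 1 mouse. The ZnSO4 differences were 0.11 in PBS mice (95% interval -0.0921 to 0.31) and 0.0932 in Dex mice (-0.11 to 0.29) on the LFC scale. The table counts reads per gene, so the long and short Pik3r1 products cannot be told apart.

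Foxo1 and Foxo3 encode the FoxO transcription factors that AKT keeps out of the nucleus. Foxo1, at chr3:52268336-52353221, forward strand, had normalised counts of 590.5, 958 and 608 for water + PBS, 1483, 1227 and 1513 for water + Dex, 655, 799 and 513 for ZnSO4 + PBS and 1199, 624 and 1442 for ZnSO4 + Dex. The water + Dex mice were all above the water + PBS mice, while the ZnSO4 + Dex group held a low value, that of mouse 2, within the PBS range. The Dex difference just missed the threshold in water mice (LFC 0.97, SE 0.28, adjusted p = 0.0523) and did not pass in ZnSO4 mice (LFC 0.73, SE 0.28, adjusted p = 0.121). Without mouse 2 of ZnSO4 + Dex, Dex upregulated Foxo1 both in water mice (LFC 0.97, adjusted p = 0.01) and in ZnSO4 mice (LFC 1.01, adjusted p = 0.0131). In water mice the difference passed in 3 of the 12 fits that leave out 1 mouse, with adjusted p up to 0.168 over all 12. The other fits that passed were those without mouse 2 of water + PBS or mouse 3 of ZnSO4 + Dex. For both treatments against water + PBS the difference did not pass with all mice (LFC 0.60, SE 0.28, adjusted p = 0.15). It passed without mouse 2 of ZnSO4 + Dex (LFC 0.88, adjusted p = 0.0183). With all mice, the Dex difference in ZnSO4 mice passed with the smooth muscle covariate (LFC 0.96, adjusted p = 0.00857) and with the enterocyte covariate (LFC 0.70, adjusted p = 0.0399), as did that of both treatments (adjusted p = 0.00924 and 0.0429). DESeq2 called the difference in water mice with all mice (LFC 0.97, adjusted p = 0.00516). In edgeR it passed with upper-quartile scaling (adjusted p = 0.0442), all genes with a count (0.0151) and at least 10 counts in every library (0.0449). It also passed with only the groups compared and with the smooth muscle covariate. It did not pass with RLE scaling (0.0533), with mice of the same number as a block (0.096) or with the enterocyte covariate. The ZnSO4 differences were -0.13 in PBS mice (95% interval -0.75 to 0.49) and -0.37 in Dex mice (-0.98 to 0.24). The antisense gene Gm20402 overlaps 7.78% of the exon length of Foxo1 and had 0 counts in all libraries.

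Foxo3, at chr10:42181841-42276755, reverse strand, had normalised counts of 1178, 1436 and 1307 for water + PBS, 1254, 1244 and 1349.6 for water + Dex, 1379, 1418 and 1124 for ZnSO4 + PBS and 1440.2, 1224 and 1338 for ZnSO4 + Dex. The 4 groups overlapped. The LFC for Dex was -0.0271 in water mice (95% interval -0.25 to 0.20) and 0.0293 in ZnSO4 mice (-0.20 to 0.26), and that of ZnSO4 in Dex mice was 0.0566 (-0.17 to 0.28). The difference of ZnSO4 in PBS mice was 9.81e-05 (-0.23 to 0.23).

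Sesn1, at chr10:41809935-41908424, forward strand, encodes sestrin 1, a stress-induced inhibitor of mTORC1 and a known FoxO target. Its normalised counts were 1474, 1561 and 1473 for water + PBS, 6217, 6476 and 6284 for water + Dex, 1492, 1462 and 1336 for ZnSO4 + PBS and 6668, 4230.1 and 6605 for ZnSO4 + Dex. The lowest Dex mouse, mouse 2 of ZnSO4 + Dex, was still far above the highest PBS mouse. Dex upregulated Sesn1 4.21-fold in water mice (LFC 2.07, SE 0.15, adjusted p = 6.34e-06) and 4.08-fold in ZnSO4 mice (LFC 2.03, SE 0.15, adjusted p = 6.62e-06), ranks 136 and 175 from the highest LFC among the 15938 genes. The ZnSO4 differences were -0.0715 in PBS mice (95% interval -0.38 to 0.24) and -0.12 in Dex mice (-0.43 to 0.19). Both Dex calls held in all 12 fits without 1 mouse. In the low library the summed enterocyte markers were also low, at 22220.0, 11850.0 and 26250.0 CPM in ZnSO4 + Dex mice 1, 2 and 3, and with these markers as a covariate, likewise added after the values were seen, the Dex LFC was 1.88 in water mice and 2.03 in ZnSO4 mice. Its relatives Sesn2 and Sesn3 had a Dex LFC of 0.0734 (SE 0.18, adjusted p = 0.858) and -0.43 (SE 0.20, adjusted p = 0.227) in water mice and did not pass. These 2 genes complete the sestrin family and were named after their values were seen.

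Phlpp1 and Phlpp2 encode the PHLPP phosphatases, which act on the hydrophobic motif of AKT. Phlpp1, at chr1:106171752-106394250, forward strand, had normalised counts of 189, 163 and 177 for water + PBS, 155, 211 and 158 for water + Dex, 201, 180.3 and 163 for ZnSO4 + PBS and 218, 215 and 187 for ZnSO4 + Dex. The groups overlapped in each comparison, and the LFC for Dex was -0.0127 in water mice (95% interval -0.32 to 0.29) and 0.19 in ZnSO4 mice (-0.11 to 0.49).

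Phlpp2, at chr8:109868542-109944671, forward strand, was the downregulated gene of the 10. Normalised counts were 1448, 1429 and 1313 for water + PBS, 746, 903 and 648 for water + Dex, 1270.0, 1167 and 1228 for ZnSO4 + PBS and 433, 317 and 502 for ZnSO4 + Dex. None of the 4 groups overlapped another, and their order from high to low was water + PBS, ZnSO4 + PBS, water + Dex, ZnSO4 + Dex. Of the neighbours in that order, water + PBS and ZnSO4 + PBS did not overlap, but their difference did not pass the test (LFC -0.19, SE 0.15, adjusted p = 0.521). Dex downregulated Phlpp2 to 0.548 times the PBS level in water mice (LFC -0.87, SE 0.15, adjusted p = 0.00327) and to 0.341 times in ZnSO4 mice (LFC -1.55, SE 0.15, adjusted p = 6.02e-05). ZnSO4 downregulated it in Dex mice to 0.545 times the water + Dex level (LFC -0.88, SE 0.15, adjusted p = 0.00894). With both treatments it was at 0.299 times the water + PBS level (LFC -1.74, SE 0.15, adjusted p = 1.85e-05), rank 332 from the lowest LFC of all genes tested. All of these calls held in the 12 fits without 1 mouse, and with the smooth muscle or the enterocyte covariate.

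The Dex LFC of Phlpp2 was more negative in ZnSO4 mice than in water mice (interaction -0.68, SE 0.21, 95% interval -1.15 to -0.22). The unadjusted p of that difference in edgeR was 0.00796 and the adjusted p was 0.952, so it did not pass over all genes. The other 9 genes had interaction values between -0.24 and 0.40, with unadjusted p between 0.19 and 0.897. For Insr and Irs1, called for Dex in only one of the drinking groups, the Dex effect was therefore not shown to differ between them.

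**Figure D2:**
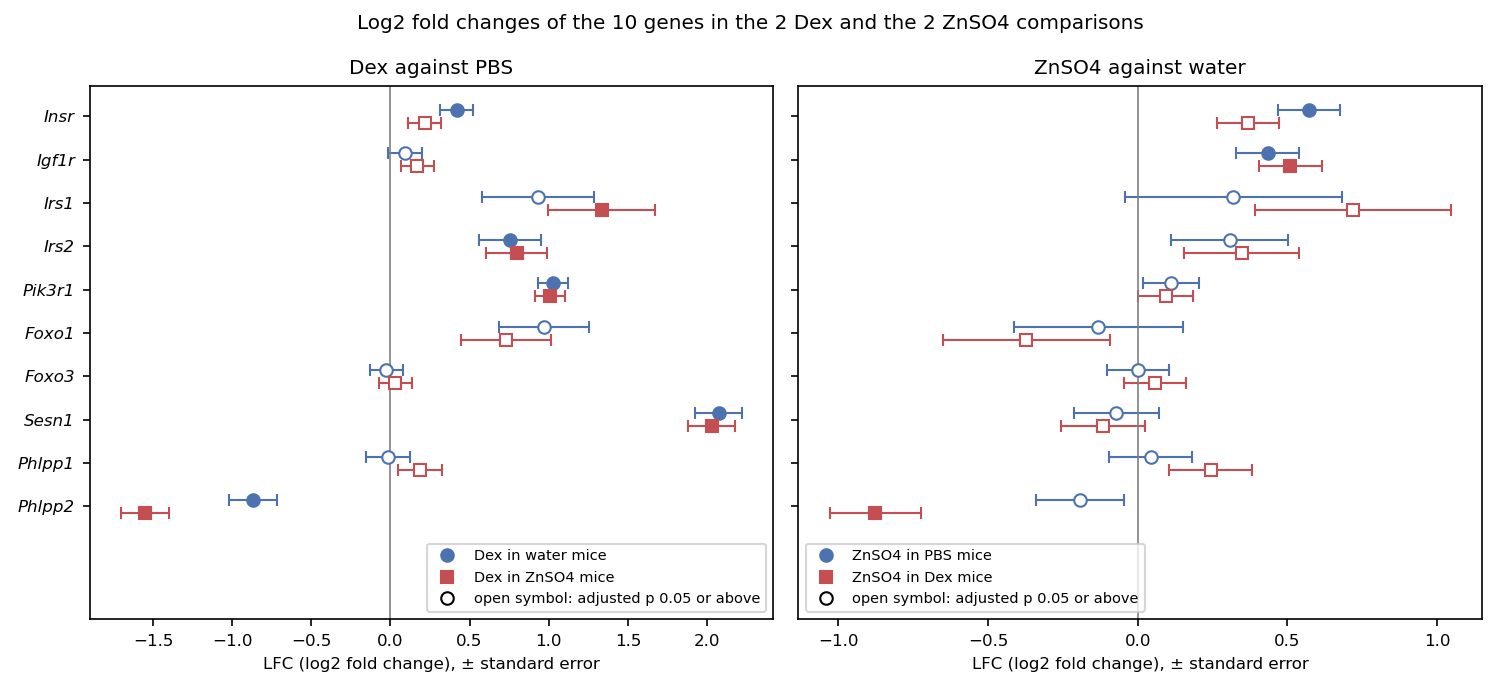
LFC ± SE of the 10 genes for Dex against PBS (left) and ZnSO4 against water (right), in water or PBS mice (circles) and in ZnSO4 or Dex mice (squares); filled symbols passed at an adjusted p under 0.05. Sesn1 lay near 2 and Pik3r1 near 1 for Dex in both drinking groups, and Phlpp2 lay at -0.87 in water mice and -1.55 in ZnSO4 mice.

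Levels of different genes were compared per length, as RPKM, in which read counts are divided by exon length and library size. In water + PBS mice Sesn1 was highest at 33.2 ± 1.12 RPKM (SD, n = 3, as for all levels given here), followed by Foxo3 at 15.2 ± 1.5, Phlpp2 at 14.5 ± 0.761 and Pik3r1 at 11.9 ± 1.37. Foxo3 and Phlpp2 overlapped, and the Pik3r1 mice lay just below both. Foxo1 (7.29 ± 2.1), Irs2 (6.49 ± 2.07) and Insr (5.13 ± 0.378) formed a middle group, in which Foxo1 overlapped Irs2 and Irs2 overlapped Insr. Phlpp1 (2.29 ± 0.171), Igf1r (1.37 ± 0.0849) and Irs1 (0.171 ± 0.0315) were lowest. In ZnSO4 + Dex mice the order had changed to Sesn1 (129 ± 30.7), Pik3r1 (25.9 ± 2.21), Foxo3 (15.5 ± 1.26) and Irs2 (13.9 ± 2.13), with Phlpp2 at 4.34 ± 0.972 now nearer to Phlpp1 at 2.69 ± 0.223.

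Ratios within pairs of related genes were taken mouse by mouse. The Phlpp2 to Phlpp1 ratio of RPKM was 6.37 ± 0.579 for water + PBS, 5.42 ± 0.527 for ZnSO4 + PBS, 3.52 ± 0.292 for water + Dex and 1.64 ± 0.486 for ZnSO4 + Dex. Only the water + PBS and ZnSO4 + PBS mice overlapped in it, and the sum of both genes was 16.8 ± 0.792 RPKM in water + PBS mice and 7.03 ± 0.823 for ZnSO4 + Dex. The Foxo1 to Foxo3 ratio was 0.476 ± 0.0942 for water + PBS, 0.958 ± 0.0877 for water + Dex, 0.435 ± 0.05 for ZnSO4 + PBS and 0.705 ± 0.249 for ZnSO4 + Dex, the last with values from 0.446 to 0.941 that overlapped ZnSO4 + PBS. The Irs2 to Irs1 ratio varied widely between mice, from 22 to 61.1 within the water + PBS group alone. The Insr to Igf1r ratio was 3.62 to 3.98 for water + PBS and, without overlap, 4.43 to 5.12 for water + Dex, while ZnSO4 + PBS (3.63 to 4.49) and ZnSO4 + Dex (3.33 to 4.85) overlapped. These ratios were not tested, and they restate the levels of genes chosen for their changes.

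**Figure D3:**
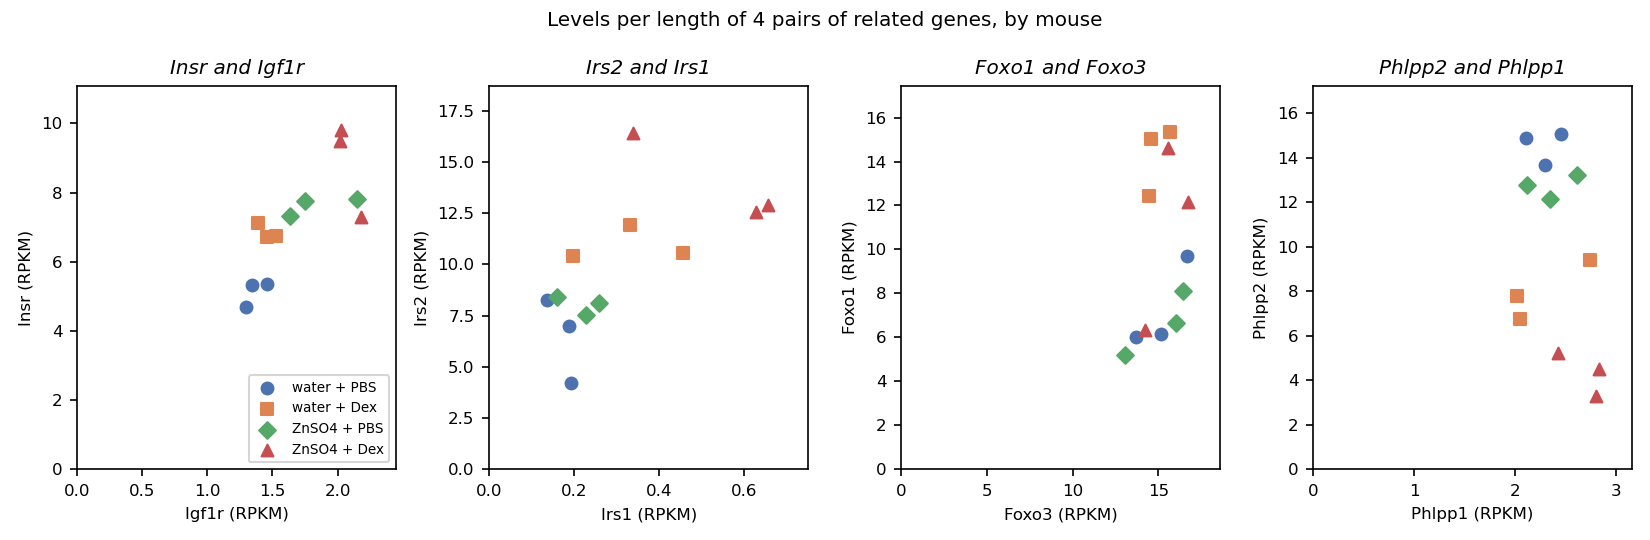
Levels per length (RPKM, axes from 0) of Insr and Igf1r, Irs2 and Irs1, Foxo1 and Foxo3, and Phlpp2 and Phlpp1, each point 1 mouse and each symbol 1 group. In the Phlpp2 and Phlpp1 panel the groups separate along the Phlpp2 axis and overlap along the Phlpp1 axis.

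Promoter sequences are shown for 4 genes: Sesn1 and Pik3r1, the most strongly upregulated by Dex among the abundant genes, and Phlpp2 with its relative Phlpp1, of which Phlpp2 alone fell. Each is the window from 250 bases before to 50 after the transcription start in RefSeq (GRCm38.p6, 5′ to 3′ on the strand of the gene). RefSeq windows were held for 9 of the 10 genes, 11 windows in all, and not for Insr. Capitals mark a match to the FoxO motif GTAAACA or its reverse complement. The motif AGAACA, a single arm of the element bound by the glucocorticoid receptor, was also searched on both strands, as was the full element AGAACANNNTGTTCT, which contains that arm. The windows of Sesn1, Pik3r1, Phlpp1 and Phlpp2 shown lie at chr10:41810324-41810623, forward strand, chr13:101768168-101768467, reverse strand, chr1:106171619-106171918, forward strand and chr8:109868353-109868652, forward strand.
Sesn1: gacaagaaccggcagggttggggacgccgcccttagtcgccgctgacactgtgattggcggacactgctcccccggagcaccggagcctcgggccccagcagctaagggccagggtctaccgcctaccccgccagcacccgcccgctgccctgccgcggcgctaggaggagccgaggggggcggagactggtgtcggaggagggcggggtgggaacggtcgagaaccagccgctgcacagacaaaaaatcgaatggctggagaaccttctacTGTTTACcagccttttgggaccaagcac
Pik3r1: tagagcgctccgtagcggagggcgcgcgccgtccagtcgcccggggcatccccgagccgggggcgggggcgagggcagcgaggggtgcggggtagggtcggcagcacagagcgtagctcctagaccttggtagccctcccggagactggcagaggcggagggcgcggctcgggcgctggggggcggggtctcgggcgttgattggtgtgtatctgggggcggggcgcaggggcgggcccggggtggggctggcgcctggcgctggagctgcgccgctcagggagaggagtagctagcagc
Phlpp1: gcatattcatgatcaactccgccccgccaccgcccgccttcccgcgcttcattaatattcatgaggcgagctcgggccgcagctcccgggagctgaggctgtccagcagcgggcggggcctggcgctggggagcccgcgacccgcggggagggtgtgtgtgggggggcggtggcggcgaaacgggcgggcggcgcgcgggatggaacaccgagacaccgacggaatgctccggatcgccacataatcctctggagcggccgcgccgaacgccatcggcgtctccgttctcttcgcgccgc
Phlpp2: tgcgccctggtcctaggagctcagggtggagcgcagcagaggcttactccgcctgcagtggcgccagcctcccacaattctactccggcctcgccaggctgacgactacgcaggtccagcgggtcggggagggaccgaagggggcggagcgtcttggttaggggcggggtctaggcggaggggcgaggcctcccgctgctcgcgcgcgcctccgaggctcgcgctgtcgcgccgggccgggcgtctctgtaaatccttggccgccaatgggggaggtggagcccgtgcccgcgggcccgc

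A single match was found in the 11 windows, the FoxO motif on the opposite strand of the Sesn1 window (TGTTTAC, first base 23 bases after the start, counted from 1 at the start). This motif is present in 3.65% of the 32851 promoter windows of the mouse genome in RefSeq. None of the 11 windows held the single arm of the glucocorticoid receptor element, which 19% of all windows hold, or the full element, which 0.00913% hold. The windows were rich in G and C, with 66.7% in that of Sesn1, 75.7% in the Pik3r1 window shown, 70.7% in Phlpp1 and 72.7% in Phlpp2, where the median of all windows was 52.7%. A second Pik3r1 window, at chr13:101692581-101692880, reverse strand, had 43.7%. A match is only a match of letters, and sites outside these windows were not searched.

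The other genes of the route were described from lists made for this purpose, with earlier results of these libraries known. Of 12 ligands and binding proteins 8 were tested. For Dex in water mice 0 of the 8 passed in edgeR, where 1 had an unadjusted p under 0.05, and 0 in DESeq2, and their median LFC was 0.37. Igfbp3, which binds insulin-like growth factors in plasma, was upregulated by ZnSO4 in PBS mice (LFC 0.40, SE 0.0895, adjusted p = 0.0286) and in Dex mice (LFC 0.68, SE 0.0893, adjusted p = 0.00204). Its mean was 826 ± 65.1 normalised reads for water + Dex and 1325 ± 139.7 for ZnSO4 + Dex (mean ± SD, n = 3). Dex also upregulated Igfbp3 in ZnSO4 mice, and the study lists it among genes induced only by Dex and ZnSO4 combined. Of 13 tested receptors and adaptors beyond the 10 genes, 1 was upregulated by Dex in water mice, Grb10, an adaptor known to dampen insulin receptor signalling, from a mean of 135 ± 17 to 254 ± 18.3 in normalised reads (LFC 0.91, SE 0.18, adjusted p = 0.0074). The 12 others did not pass, and 9.93% of all genes passed in that comparison.

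Among 15 further PI3-kinase subunits and lipid phosphatases, Dex in water mice upregulated 2 and downregulated 2, beside 5.41% and 4.51% of all genes, and the median LFC was -0.0158. The PI3-kinase inhibitor gene Pik3ip1 rose (LFC 0.92, SE 0.25, adjusted p = 0.0379). Pik3r2, the relative of Pik3r1 that encodes p85β, fell (LFC -0.51, SE 0.0963, adjusted p = 0.00552). Pik3ap1, an adaptor of PI3-kinase known from B cells and macrophages, fell for Dex in water mice (LFC -0.88, SE 0.24, adjusted p = 0.0361) and for ZnSO4 in Dex mice (LFC -1.37, SE 0.25, adjusted p = 0.0106). The summed level of 8 B cell markers ranged from 29.3 to 649 CPM in water + PBS, 15.7 to 235 in water + Dex, 12.3 to 486 in ZnSO4 + PBS and 13.2 to 71.5 for ZnSO4 + Dex. These B cell ranges overlapped. For 8 macrophage markers the summed level was 279 to 353, 313 to 364, 239 to 264 and 297 to 337 CPM in the same order of groups. The part of B cells and macrophages in the Pik3ap1 result was not tested.

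Of 17 AKT, SGK and GSK3 kinases and mTORC2 genes, 2 were upregulated by Dex in water mice, beside 5.41% of all genes, and 15 did not pass. Sgk1, a glucocorticoid-induced kinase related to AKT, rose from a mean of 3108 ± 327 to 16992 ± 269 in normalised reads (LFC 2.45, SE 0.16, adjusted p = 3.65e-06), and Mtor rose by less (LFC 0.26, SE 0.0619, adjusted p = 0.0206). Of the 21 genes of the mTORC1 branch 7 passed for Dex in water mice, each upregulated, with a median LFC of 0.0447. Beside them 5.41% of all genes were upregulated and 9.93% passed in either direction. Ddit4, whose product REDD1 inhibits mTORC1, rose from a mean of 328 ± 108 to 5994 ± 243 in normalised reads (LFC 4.19, SE 0.20, adjusted p = 5.23e-07). The translation repressor genes Eif4ebp3 (LFC 4.09, SE 0.29, adjusted p = 6.33e-06) and Eif4ebp1 (LFC 0.56, SE 0.13, adjusted p = 0.0158) and the mTOR inhibitor gene Deptor (LFC 0.43, SE 0.10, adjusted p = 0.0175) rose as well. Eif4ebp3 shares 67.3% of its exon length with another gene on the same strand and is therefore uncertain. Eif4ebp2, Rheb, an activator of mTORC1, and Tsc1, an inhibitor of it, were the other 3, with LFC between 0.28 and 0.40. These 3 were named after their values were seen, to complete the count.

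Of 17 other FoxO factors and FoxO regulators, 2 were downregulated by Dex in water mice, beside 4.51% of all genes: Foxo6, a FoxO factor that is best known from the brain, from a mean of 155 ± 11.9 to 74 ± 13.7 in normalised reads (LFC -1.07, SE 0.22, adjusted p = 0.0101), and Ywhag, which encodes a 14-3-3 protein of the kind that binds phosphorylated FoxO factors (LFC -0.31, SE 0.0802, adjusted p = 0.0295). Of the 35 known FoxO target genes 32 were tested, and Dex upregulated 11 and downregulated 4 of them in water mice, beside 5.41% and 4.51% of all genes, with a median LFC of 0.38. The largest rises were those of Pck1, the gluconeogenic enzyme gene, from a mean of 186 ± 69.2 to 7532 ± 1802 in normalised reads (LFC 5.34, SE 0.35, adjusted p = 3.73e-06), Klf15 (LFC 2.68, SE 0.29, adjusted p = 0.000131), Pdk4 (LFC 2.21, SE 0.54, adjusted p = 0.0228) and Gadd45b (LFC 2.06, SE 0.28, adjusted p = 0.000687). Pck1, Klf15, Pdk4 and Gadd45b are also known as direct or indirect glucocorticoid targets. In ZnSO4 mice Dex upregulated 10 and downregulated 2 of the 32, beside 6.65% and 7.08% of all genes. For ZnSO4 in Dex mice 2 were upregulated and 2 downregulated, beside 1.83% and 2.54% of all genes: Txnip, an inhibitor of thioredoxin and glucose uptake, rose (LFC 0.56, SE 0.14, adjusted p = 0.0443) and Tnfsf10, the gene of the death ligand TRAIL, fell (LFC -0.82, SE 0.14, adjusted p = 0.00833).

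Of the 16 partners and substrates of PHLPP, Dex in water mice upregulated Fkbp5 (LFC 3.34, SE 0.13, adjusted p = 2.14e-07), a scaffold known to bring PHLPP to AKT and itself among the genes used above to check the Dex treatment, and downregulated Usp12, a deubiquitinase that stabilises PHLPP (LFC -0.44, SE 0.10, adjusted p = 0.0188). The other 14 did not pass, and 9.93% of all genes passed.

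**Figure D4:**
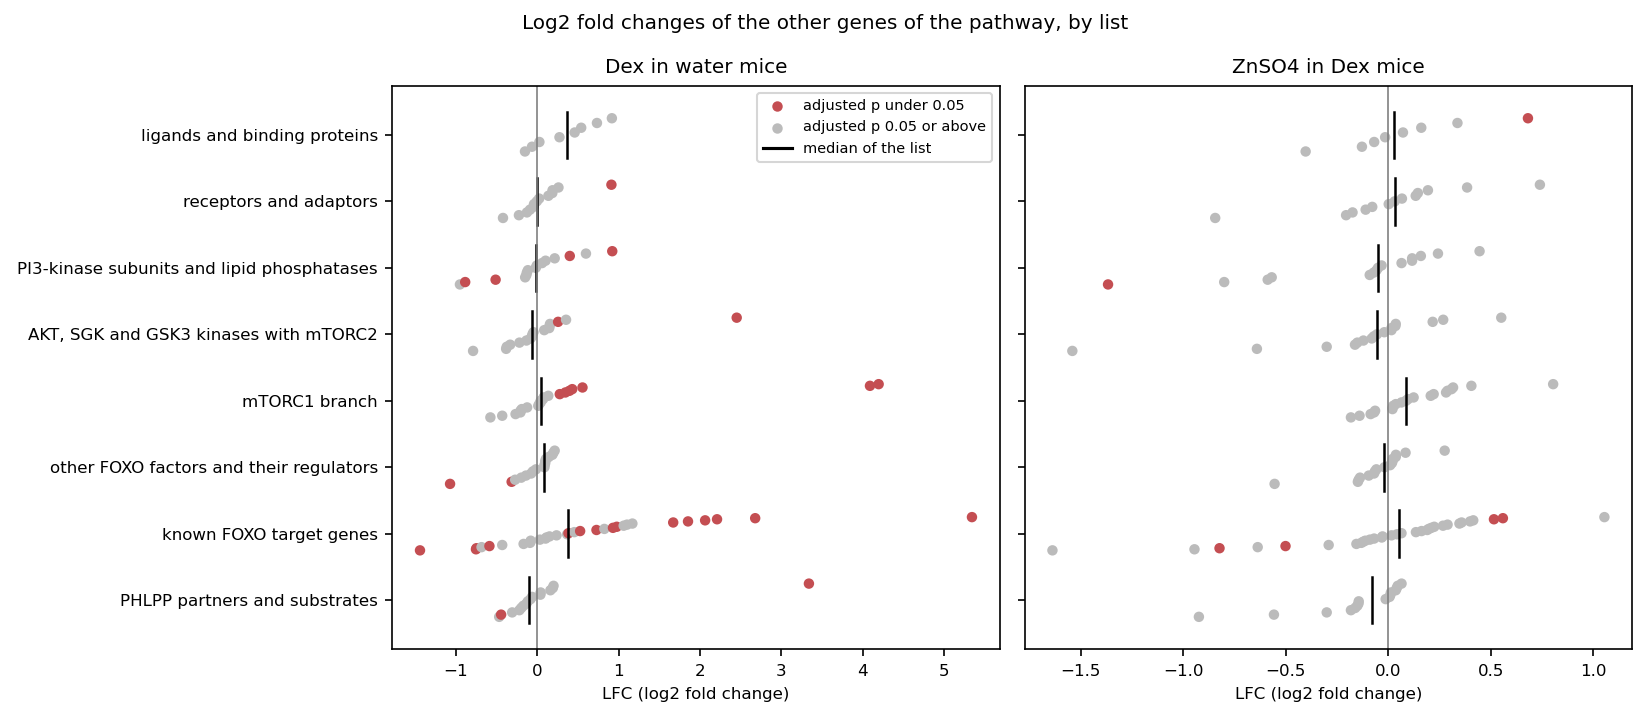
LFC of the other genes of the route, by list, for Dex in water mice (left) and ZnSO4 in Dex mice (right); each point is 1 tested gene, red points passed at an adjusted p under 0.05 and bars mark the median of a list. For Dex in water mice Pck1, Ddit4, Eif4ebp3 and Fkbp5 lay farthest to the right, and the list medians lay between -0.097 and 0.38.

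As a description of the patterns, the 2 genes whose log2 CPM followed each of the 10 genes most closely over the 12 libraries were taken from 11356 tested genes outside the lists. They were Tiparp (r = 0.993) and Dclre1b (r = 0.993) for Sesn1, Rbbp8 (r = 0.993) and Pigh (r = 0.991) for Pik3r1 and Ttc22 (r = 0.993) and Tmem170 (r = 0.983) for Phlpp2. For Foxo1 they were Poldip3 (r = 0.959) and Etnk1 (r = 0.952), for Insr Prkg2 (r = 0.939) and Osbpl6 (r = 0.926), for Igf1r Stim1 (r = 0.967) and Col6a4 (r = 0.962), for Irs1 Parvb (r = 0.945) and Casq2 (r = 0.936) and for Irs2 Gm7027 (r = 0.958) and Tox (r = 0.931). For Foxo3 they were Zbtb2 (r = 0.939) and Pan2 (r = 0.9) and for Phlpp1 Fbxo3 (r = 0.904) and Tfpi (r = 0.854). The libraries share treatments and tissue, and these values carry no test.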

How the data were processed

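Ileal RNA of 12 mice, 3 in each of 4 groups, was sequenced. Per the labels and the study's methods, the authors prepared stranded libraries, trimmed single-end reads with Trimmomatic, aligned them to mm10 with HISAT2 2.0.4 and deposited raw read counts per Ensembl gene made with featureCounts without multimapping reads. The annotation release and the strand setting of the counting are not given in the sources used here. Symbols, positions and exon lengths came from the GENCODE annotation of GRCm38, and promoter windows from RefSeq.

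Libraries held 10760132 to 11827487 counts. Genes were kept by edgeR's filterByExpr with a minimum count of 10 (15938 of 54838). Counts were scaled by TMM and 4 group means were fitted with edgeR 4.0.16 (R 4.3.3, limma 3.58.1) by the quasi-likelihood test, with Benjamini-Hochberg adjustment over all tested genes. All groups entered the fit and shared 1 estimate of the spread. Group means are given with the SD. The labels number the libraries of a group as replicates 1 to 3, and the study gives 3 mice per group. Each library was therefore taken as 1 mouse, and the p-values measure the spread between these libraries. The fitting was tested on simulated counts.

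DESeq2 1.42.0, other scalings and filters, a replicate block, the comparison of only 2 groups, an LFC cut-off of 0.8 and leaving out each library were tried as alternatives, and 2 marker covariates were added after the data were seen. The members and the gene lists were chosen with earlier results of these data known. All 10 members are named. From each other list, up to 4 genes with the largest LFC in size among those called for Dex in water mice and up to 2 called for ZnSO4 in Dex mice are named, besides exceptions stated in the text and a gene that is not reported here. For each member the 2 genes with the highest Pearson r are named, among tested genes of at least 5 mean CPM in no list.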

Additional observations from a re-analysis of the deposited data

How the results depend on the processing

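The calls of Pik3r1, Sesn1 and Phlpp2 for Dex, in water and in ZnSO4 mice, held with DESeq2, the other scalings and filters, the replicate block, only the groups compared, both covariates and each library left out. The share of all genes called also moved with the settings and is given in brackets. The number of the 10 genes called for ZnSO4 in PBS mice fell from 2 (4.66%) to 1 in several settings. These were all genes that had a count (2.05%), the replicate block (3.62%), only the groups compared (2.67%) and the smooth muscle covariate (2.96%). It was 0 with the LFC cut-off of 0.8 (1.7%) and with glmTreat, a test against 0.8 (0.251%). For Dex in water mice the number was 5 (9.93%). It was 3 with the cut-off (4.42%), 3 with the enterocyte covariate (10.3%), 1 with glmTreat (1.22%) and 4 with the replicate block (8.96%). With DESeq2 (10.9%), upper-quartile scaling (10.2%) and all genes with a count (4.69%) it was 6. At least 10 counts in every library (11.2%) and the smooth muscle covariate (10.2%) also gave 6. For Dex in ZnSO4 mice it was 2 with glmTreat (1.73%), 4 with the cut-off (5.81%) and 6 with the enterocyte covariate (16.5%) instead of 5 (13.7%). For ZnSO4 in Dex mice it was 2 (4.37%). There the cut-off (1.9%) and the smooth muscle covariate (1.76%) gave 1 and glmTreat (0.238%) gave 0. DESeq2 (6.36%) and upper-quartile scaling (4.86%) gave 3. For both treatments it was 3 with glmTreat (2.74%) and 8 with the enterocyte covariate (25.5%) instead of 7 (23.3%). Leaving out 1 library gave 3 to 6 genes for Dex in water mice (5.76% to 11.4%) and 3 to 6 for Dex in ZnSO4 mice (9.18% to 13.4%). It gave 1 to 2 for ZnSO4 in PBS mice (1.74% to 6.19%) and 1 to 2 for ZnSO4 in Dex mice (1.98% to 4.27%). Both treatments had 7 to 8 (16.4% to 22.7%). The cause of these shifts was not tested.

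Differences that turned direction had not been called. Under upper-quartile scaling the Pik3r1 interaction was 0.00115, and with the replicate block Foxo3 was -0.00147 for ZnSO4 in PBS mice. With the smooth muscle covariate Foxo3 was 0.0318 for Dex in water mice, Foxo1 0.21 and Sesn1 0.0512 for ZnSO4 in PBS mice, and Foxo1 0.00245 and Sesn1 0.0296 for ZnSO4 in Dex mice. With the enterocyte covariate Sesn1 was 0.12 for ZnSO4 in Dex mice, and the interaction was -0.00475 for Igf1r, 0.013 for Pik3r1, 0.0448 for Foxo1 and 0.15 for Sesn1. Leaving out 1 library, Foxo3 ranged from -0.0994 to 0.045 (Dex in water mice), -0.0693 to 0.0891 (Dex in ZnSO4 mice), -0.0614 to 0.0979 (ZnSO4 in PBS mice), -0.00268 to 0.11 (ZnSO4 in Dex mice), -0.0389 to 0.0998 (both) and -0.0423 to 0.12 (interaction). Phlpp1 ranged from -0.18 to 0.0654 for Dex in water mice and -0.0364 to 0.11 for ZnSO4 in PBS mice, Foxo1 from -0.30 to 0.13 for ZnSO4 in PBS mice and Sesn1 from -0.22 to 0.0687 for ZnSO4 in Dex mice. The interaction ranged from -0.50 to 0.0387 for Foxo1, -0.00497 to 0.20 for Igf1r, -0.17 to 0.27 for Irs2, -0.11 to 0.0687 for Pik3r1 and -0.15 to 0.14 for Sesn1.

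Mice of the same number were not seen to deviate together (median r of -0.056 over 18 pairs, and 0.023 over 36 pairs of different numbers). The former ranged from -0.359 to 0.457, and with 3 mice per group a weak pairing could go unseen. The replicate block gave 1 gene for ZnSO4 in PBS mice, without Igf1r (adjusted p = 0.0784). For Dex in water mice it gave 4, without Irs2 (adjusted p = 0.0506). Irs1 had few reads, and its SE was the largest of the 10 genes.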
